A study of Arabidopsis thaliana with 12 samples.

Results

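The response of whole Arabidopsis seedlings to the fas2-4 mutation was set against their response in libraries labelled hira-1, gene by gene, as the difference between 2 effects: (fas2-4 minus Col-0 of experiment 2) minus (hira-1 minus Col-0 of experiment 1), on the log2 scale. A positive difference means that a gene stood higher in fas2-4, relative to its own wild type, than in hira-1 relative to its own wild type. All 12 RNA-seq libraries of the series enter this contrast. Experiment 2 gave 3 libraries of fas2-4 and 3 of wild-type Columbia-0 (Col-0), and experiment 1 gave 3 libraries labelled hira-1 and a separate set of 3 of Col-0. Each mutant was thus present in 1 experiment only. Setting it against its own Col-0 removes a shift that both groups of an experiment share. A difference between the mutants cannot be told apart from a mutant response particular to its experiment. Seeds were kept at 4 °C for 4 days and plants grew on soil in long days at about 21 °C. Whole seedlings were harvested 12 days after germination. The labels name neither the seed stocks nor the nature of the alleles, and do not say whether the replicates are separate plants or cultures, so p-values measure only the spread between these libraries. Of the 32833 genes in the count tables, 20152 passed the filter on low counts and were tested.

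FAS2 belongs to CAF-1, the chromatin assembly factor and histone chaperone that places new H3-H4 with the replicative variant H3.1 behind the replication fork. HIRA is the chaperone of the replication-independent variant H3.3. In Arabidopsis, loss of CAF-1 is known to switch on the DNA damage response, which runs through the transcription factor SOG1, while hira mutants are known for a mild phenotype.

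The mutated genes were not called lower in the libraries that carry their names. HIRA (AT3G44530, chromosome 3, 16115498 to 16121534) had 12.7, 14.2 and 24.7 CPM (counts scaled by library size) in the libraries labelled hira-1, against 11.1, 14.3 and 9.98 CPM in Col-0 of experiment 1, so it was not lower there. Its hira-1 effect was +0.55 (SE 0.25, edgeR adjusted p = 0.1053), and with an offset for gene length it was +1.51 and called (adjusted p = 0.008016). FAS2 (AT5G64630, chromosome 5, 25833165 to 25836400) had 4.69, 4.45 and 5.92 CPM in fas2-4, against 6.62, 7.11 and 6.45 CPM in Col-0 of experiment 2. Its fas2-4 effect was -0.42 (SE 0.24) and did not pass the test (edgeR adjusted p = 0.394). Counts per gene do not show whether a transcript is intact. Directions given below for hira-1 are those of the libraries so labelled.

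Total counts were 39258873 to 39510509 per library in experiment 2 and 20700171 to 21902258 in experiment 1. In fas2-4, replicate 1 stood apart from replicates 2 and 3: its correlation with them was 0.973 in log2 CPM, against 0.993 between replicates 2 and 3. Its deviations from the mean of all libraries also ran against gene length (Spearman -0.19 across genes, against 0.373 and 0.379 in the other fas2-4 libraries). The 3 libraries labelled hira-1 ran from -0.549 to -0.243 on that measure, and the 3 Col-0 libraries of experiment 1 from -0.201 to 0.358. Whether RNA quality differed was not tested.

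The difference was called (Benjamini-Hochberg adjusted p under 0.05 over all tested genes) for 2331 genes, of which 1176 lay above 0 and 1155 below 0. These are 5.84% and 5.73% of the tested genes. In the same fit, 806 genes (4%) were called higher and 311 (1.54%) lower in fas2-4 than in Col-0, and 2910 (14.4%) were called higher and 3089 (15.3%) lower in hira-1 than in Col-0. Across genes, the fas2-4 and hira-1 effects had a Pearson correlation of 0.162 (20152 genes, which are not independent replicates). Of the 299 genes called in both mutants, 189 moved the same way with no called difference, 14 moved the same way with a called difference, and 96 moved in opposite directions. In 58 of those 96 genes the transcript rose in fas2-4 and fell in hira-1, and in 38 it fell in fas2-4 and rose in hira-1. A further 354 genes with a called difference were called in fas2-4 alone (252 higher, 102 lower), and 1640 in hira-1 alone (892 higher, 748 lower). They are named here fas2-4-led and hira-1-led genes. The remaining 227 differences were called although neither effect was.

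**Figure D1:**
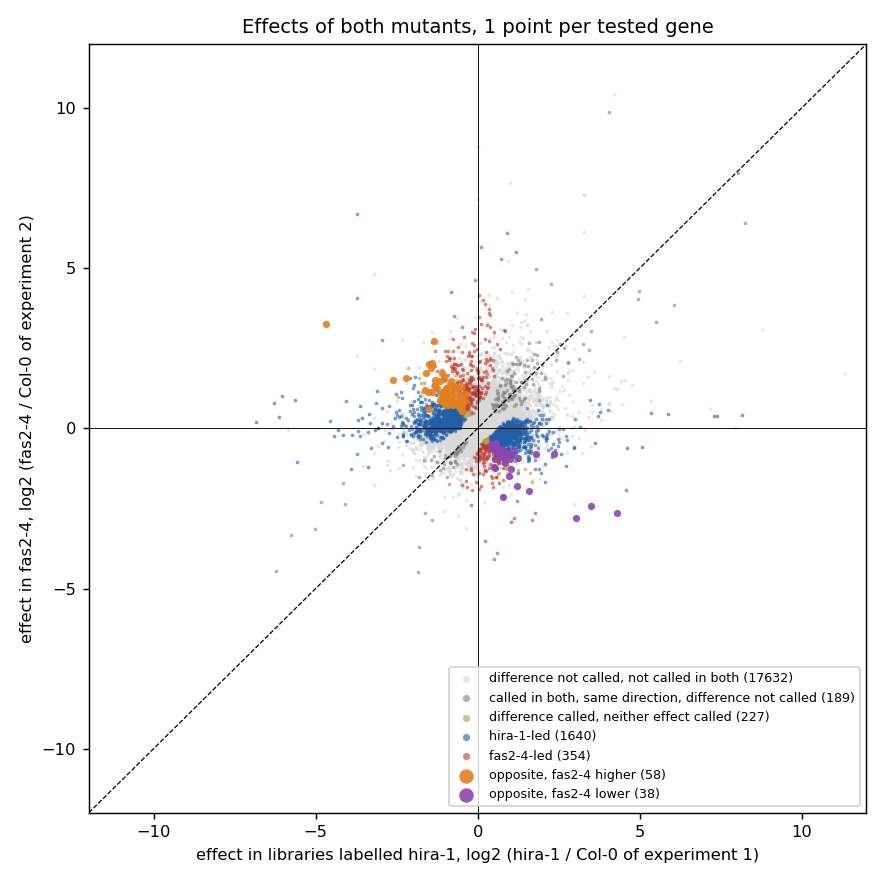
Effect in fas2-4 (vertical, log2 of fas2-4 over Col-0 of experiment 2) against the effect in libraries labelled hira-1 (horizontal, log2 of hira-1 over Col-0 of experiment 1), 1 point per gene, with the dashed line where both effects are equal. All tested genes are drawn except the 14 that moved the same way with a called difference, SMR7 and ANAC044 among them. The 58 and 38 opposite genes lie at the upper left and lower right, and the 1640 hira-1-led genes spread along the horizontal axis.

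Gene length moved with the result. The difference rose with exon length (Spearman 0.438 across 20018 genes), from a median of -0.49 in the shortest of 10 length classes (median 706 bases) to +0.82 in the longest (median 3850 bases). Nearly all of it lay in the hira-1 effect (Spearman -0.536), and little in the fas2-4 effect (-0.06). The hira-1-led genes that fell had a median exon length of 2250 bases and those that rose 1168 bases. With a length offset per library, 2859 differences were called, of which 1895 were among the 2331 with the same sign, and 95 of the 96 opposite genes still had a called difference. With this offset, 58 of the 96 still had both effects called in opposite directions (35 of the 58 higher and 23 of the 38 lower in fas2-4). The cause of the length trend was not tested.

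Between libraries of the same replicate number, deviations from the group means correlated at 0.214, 0.427 and 0.508 in experiment 1. In experiment 2 they correlated at -0.063, 0.163 and -0.002. The correlations with gene length in experiment 1 also shared a replicate order (0.274, 0.358 and -0.201 in Col-0, -0.392, -0.243 and -0.549 in hira-1). Whether the numbers mark pairs is not stated in the labels, and the source of the correlations was not tested. A block by replicate number in experiment 1 was added after the data were seen. With it, 6392 differences were called, including 2330 of the 2331. The counts of opposite genes were then 174 and 207, of fas2-4-led genes 828 and of hira-1-led genes 4629. The number of called differences fell to 760, 975 and 835 without replicate 1, 2 or 3 of Col-0 of experiment 2, to 723 and 1099 without replicate 1 or 2 of Col-0 of experiment 1, to 1303 without hira-1 replicate 3, and to 800 and 747 without fas2-4 replicate 2 or 3. It was 4449 without fas2-4 replicate 1, 4844 without hira-1 replicate 2 and 3751 without replicate 3 of Col-0 of experiment 1.

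The opposite genes with the largest differences below 0 were 3 neighbours on chromosome 5, and all were lower in fas2-4 and many-fold higher in hira-1. MRU1 (AT5G35490, 13689817 to 13690548), named for its response in the methionine over-accumulating mutant mto1, had 5.64, 5.24 and 5.48 CPM in fas2-4, against 27.2, 33.7 and 27.3 CPM in Col-0 of experiment 2. It had 262, 271 and 393 CPM in hira-1, against 21.9, 25.9 and 33.9 CPM in Col-0 of experiment 1. The Col-0 sets overlapped, and the 2 mutants left that level on either side, by -2.43 (SE 0.20) in fas2-4 and +3.50 (SE 0.21) in hira-1. The difference of -5.93 (SE 0.29) had an edgeR adjusted p of 3.607e-07. AT5G35480, an uncharacterized protein gene (13687847 to 13689596), had 5.23, 2.94 and 3.60 CPM in fas2-4 and 21.7, 29.7 and 21.8 CPM in its Col-0, with 387.9, 301 and 620.5 CPM in hira-1 and 18.6, 17.41 and 30.2 CPM in its Col-0. Its difference was -6.94 (SE 0.45, edgeR adjusted p = 5.611e-06). AT5G35510, annotated as a TIR-NBS-LRR class disease resistance gene (13698496 to 13700144), was below 1 CPM in every fas2-4 and Col-0 library and had 3.42, 5.70 and 8.55 CPM in hira-1, with a difference of -5.85 (SE 0.59, edgeR adjusted p = 0.0003007). The tested genes on either side, AT5G35460 and MIS12, a kinetochore protein gene, had differences of -0.46 and -0.21 that were not called. Beyond MIS12, AT5G35525 differed by -2.09 (adjusted p = 0.04793) with neither effect called.

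MRU1 and AT5G35480 lie head to head, AT5G35480 on the minus strand and MRU1 on the plus strand, and share the 220 bases between their starts. The sequence (TAIR10.1, chr5:13689597-13689816, plus strand) is read in the direction of MRU1. It is shown because AT5G35480 and MRU1, the named opposite genes with the largest differences below 0, both start from it. Capitals mark both copies of its longest exact direct repeat, of 15 bases.
MRU1 and AT5G35480 interval: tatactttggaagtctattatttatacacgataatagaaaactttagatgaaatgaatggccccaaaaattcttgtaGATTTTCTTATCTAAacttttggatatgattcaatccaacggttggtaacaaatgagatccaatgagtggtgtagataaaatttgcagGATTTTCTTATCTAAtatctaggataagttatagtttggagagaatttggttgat

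The interval had a GC content of 29.5%. The repeat copies start 78 and 166 bases from its first base.

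The other opposite genes of this direction were smaller in size. AT5G52070, an Agenet domain gene, had 4.28, 4.41 and 4.36 CPM in fas2-4 and 8.61, 6.66 and 7.46 CPM in its Col-0, with 42, 40.9 and 46.4 CPM in hira-1 and 7.01, 8.68 and 9.29 CPM in its Col-0. Its difference of -3.17 (SE 0.22, edgeR adjusted p = 1.019e-05) came mostly from hira-1, and the gene overlaps another counted gene, so its reads may be shared. Its fas2-4 effect was not called with the length offset (-0.78, adjusted p = 0.06677). TAS3, the precursor of trans-acting small RNAs that target auxin response factor transcripts, had 26.9, 19.7 and 19.3 CPM in fas2-4 and 41.9, 38.7 and 44 CPM in its Col-0, with 104, 90.9 and 156 CPM in hira-1 and 37.2, 45.9 and 64.9 CPM in its Col-0. No library of either mutant overlapped its Col-0, and the difference was -2.17 (SE 0.33, edgeR adjusted p = 0.004114). AT3G45430, a lectin receptor kinase gene, differed mainly through fas2-4, with effects of -2.14 in fas2-4 and +0.79 in hira-1. PLIM2b, a LIM domain protein gene, had effects of -0.81 and +1.81 in the same order, and AT4G36105 had -1.47 and +0.98. Over the 38 genes the median effects were -0.82 in fas2-4 and +0.72 in hira-1, and the median exon length was 1352 bases.

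**Figure D2:**
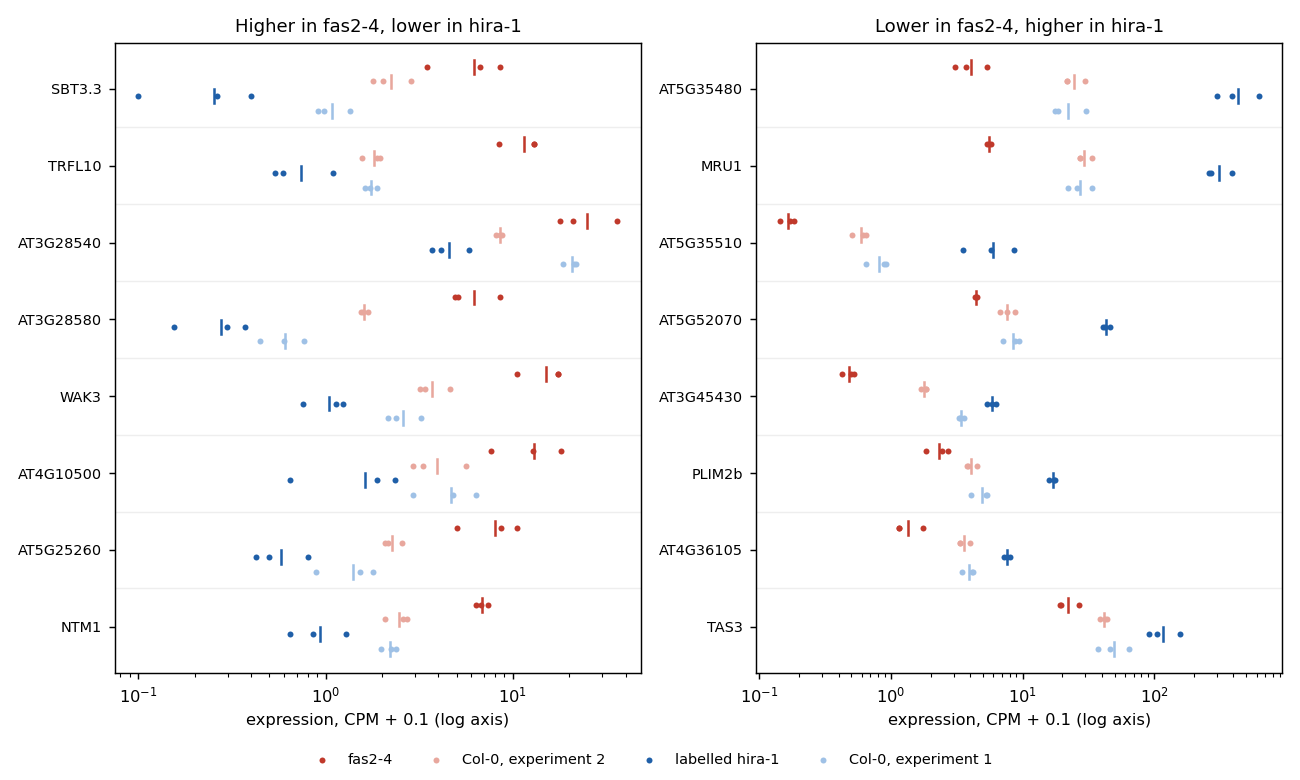
Expression (CPM plus 0.1, log axis) of opposite genes in every library, with 1 point per library, 3 libraries per group and a tick at the group mean, for fas2-4, Col-0 of experiment 2, libraries labelled hira-1 and Col-0 of experiment 1 from top to bottom within each gene. On the left all fas2-4 points lie above their Col-0 and all hira-1 points below theirs, and on the right the order is turned round, most widely for AT5G35480 and MRU1.

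The 58 genes of the other direction included cell surface and defence genes. TRFL10, annotated as TRF-like 10, had 8.37, 12.9 and 12.9 CPM in fas2-4 and 1.46, 1.79 and 1.86 CPM in its Col-0. It had 0.488, 0.991 and 0.436 CPM in hira-1 and 1.79, 1.53 and 1.62 CPM in that mutant's Col-0. Both Col-0 sets lay between the mutants, and the difference was +4.08 (SE 0.42, edgeR adjusted p = 0.0003057). WAK3, a wall-associated kinase gene, had 17.3, 10.4 and 17.37 CPM in fas2-4 and 4.49, 3.28 and 3.08 CPM in its Col-0, with 1.14, 1.04 and 0.654 CPM in hira-1 and 2.29, 3.15 and 2.06 CPM in its Col-0. Its difference was +3.45 (SE 0.41, edgeR adjusted p = 0.0008367). SBT3.3, a subtilase gene known from immune priming, had a difference of +4.13 (SE 0.75, edgeR adjusted p = 0.008474), with 0 to 0.297 CPM in hira-1, and overlaps another counted gene.

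AT3G28540 and AT3G28580, P-loop ATPase genes of one cluster on chromosome 3, differed by +3.77 (SE 0.36) and +3.52 (SE 0.59). With the length offset the hira-1 effect of AT3G28580 (-1.48) was not called (adjusted p = 0.05743). AT3G28540 had 17.7, 20.8 and 36.0 CPM in fas2-4 and 8.69, 8.48 and 8.0 CPM in its Col-0, with 5.75, 4.01 and 3.60 CPM in hira-1 and 21.2, 18.5 and 21.8 CPM in its Col-0. The Col-0 sets stood apart, and the fas2-4 levels overlapped those of Col-0 of experiment 1. AT4G10500, a 2-oxoglutarate-dependent oxygenase gene, and AT5G25260, an SPFH domain membrane protein gene, had differences of +3.33 (SE 0.65) and +3.32 (SE 0.53). EDS1, the lipase-like hub of resistance signalling, had effects of +0.77 in fas2-4 and -0.77 in hira-1, and with the length offset the hira-1 effect (-0.43) was not called (adjusted p = 0.0646). Over the 58 genes the median effects were +1.11 in fas2-4 and -0.96 in hira-1. In 7 of the 58 and 6 of the 38 opposite genes the Col-0 means of the 2 experiments lay at least 2-fold apart.

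Promoters were read from TAIR10.1 as 250 bases before and 50 after the annotated start, and the W-box of WRKY factors was searched on both strands as TTGACC or TTGACT. It was found in 29 of the 58 promoters (50%) of genes higher in fas2-4 and lower in hira-1, in 8 of 38 (21.1%) of genes with the opposite pattern, and in 32.4% of the 20017 promoters of tested genes. A match is a description of the letters. The matches in 3 of the named genes that were higher in fas2-4 and lower in hira-1 are shown with 10 bases on either side, capitals marking the match, so that the neighbouring bases can be compared.
TRFL10 (chr5:1001095-1001120, minus strand, 54 bases before the start): aaaaggtgaaTTGACTtcttctatat
AT3G28580 (chr3:10715368-10715393, plus strand, 219 bases before): tatataaaacTTGACTaacaagtttg
AT3G28580 (chr3:10715387-10715412, plus strand, 200 bases before): aagtttgattAGTCAAtaaagcacat
AT5G25260 (chr5:8752511-8752536, plus strand, 163 bases before): ctaaatagaaAGTCAAgaatgaaaca

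The lines ending in AGTCAA as capitals are the same motif on the other strand.

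Part of the opposite group sat in blocks of neighbouring genes. Along the chromosomes, the running median of the fas2-4 effect over 31 tested genes had its 1st and 99th percentiles at -0.17 and +0.29. In 4 places it stayed at 0.40 or more for at least 10 genes in a row. The rule was set after the pattern was seen, so the values are a description. The 4 runs cover chr1:20511519-20648434 (AT1G54990 to AT1G55325), chr1:21213625-21329944 (AT1G56612 to AT1G57590), chr4:620691-795237 (AT4G01460 to AT4G01840) and chr4:12514899-12670222 (AT4G24100 to AT4G24530). They hold 114 tested genes, 0.569% of those on chromosomes, and 106 of the 114 had a fas2-4 effect above 0. In fas2-4, 58 of the 114 were called higher and 0 lower, against 4% and 1.54% of all tested genes. The runs were chosen by this same effect, so an excess of higher genes follows from the rule and is no test of it. No run lay below 0 in fas2-4. The same cut, taken above or below 0, gave 16 runs in the hira-1 effect, 8 above 0 and 8 below. The 1st and 99th percentiles of the running median were -0.44 and +0.41 there. With the length offset the cut gave 4 runs in hira-1 (3 above 0 and 1 below) and 4 in fas2-4, all above 0. The runs described here are those of fas2-4 without the offset.

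The median fas2-4 effect was +1.05 over 27 genes in the first run, +0.96 over 11 in the second, +0.67 over 32 in the third and +0.99 over 44 in the fourth, and in the 40 tested genes on either side of each run it lay between -0.09 and +0.08. The median of each fas2-4 library was above 0 in all 4 runs: the median log2 ratio to the Col-0 mean was 0.794, 1.02 and 1.04 in replicates 1 to 3 in the first run, 0.485, 0.865 and 0.61 in the second, 0.811, 0.474 and 0.569 in the third, and 0.782, 0.881 and 0.874 in the fourth. The 3 Col-0 libraries of experiment 2 lay within 0.04 of their mean in each run. In the libraries labelled hira-1, the medians of the 4 runs were -0.38, +0.26, +0.22 and -0.09, and with the length offset +0.02, +0.17, +0.20 and +0.02, while those of fas2-4 hardly moved (+1.04, +0.95, +0.64 and +0.93). DNA was not measured in this series.

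The runs held 13 of the 58 genes that were higher in fas2-4 and lower in hira-1, 23 of the 252 fas2-4-led genes that were higher, and 0 of the 38 opposite genes of the other direction. Because the runs were chosen for a raised fas2-4 effect, a split of this direction was built into the rule. Among the 13, named after their values were seen, were ABCB3, an ABC transporter gene (effects +3.24 in fas2-4 and -4.67 in hira-1), LOX1, a lipoxygenase gene (+1.48 and -1.17), SHD, an HSP90-type chaperone gene of the endoplasmic reticulum (+1.72 and -1.10), and SCL33, a splicing factor gene (+0.95 and -0.48). With the length offset the hira-1 effect of none of these 4 was called (adjusted p 0.07415 for ABCB3, 0.1045 for LOX1, 0.08065 for SHD and 0.6461 for SCL33). The block in experiment 1 also ended the hira-1 call of ABCB3 (adjusted p = 0.05585). ABCB3 averaged below 5 CPM in every group, so its large folds rest on low counts. NTM1, a membrane-tethered NAC transcription factor gene in the third run, had 6.28, 6.62 and 7.22 CPM in fas2-4 and 2.48, 2.61 and 1.99 CPM in its Col-0, with 0.759, 1.19 and 0.545 CPM in hira-1 and 2.14, 2.29 and 1.87 CPM in its Col-0. Its difference was +2.83 (SE 0.36, edgeR adjusted p = 0.001396). Outside the runs as bounded by this rule, 45 opposite genes of this direction and 331 fas2-4-led genes remained. The rule does not mark every raised neighbour: the 7 tested genes before the second run, AT1G56550 to AT1G56610, had fas2-4 effects of +0.87 to +2.86, and the opposite gene AT1G56560 among them is counted as outside.

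**Figure D3:**
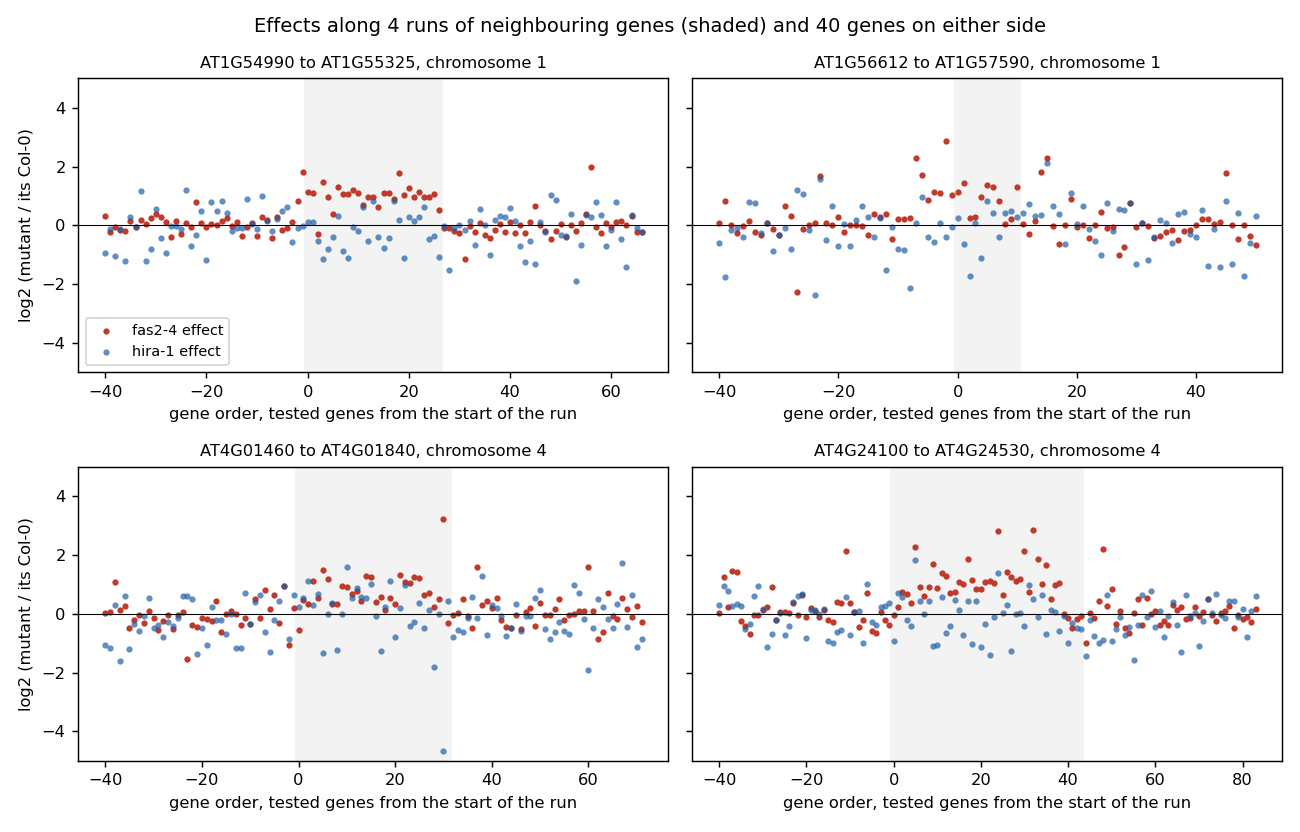
Effects in fas2-4 and in libraries labelled hira-1 (log2 of mutant over its own Col-0) for tested genes in chromosomal order, counted from the first gene of each run, with the run shaded and 40 tested genes on either side. Within the shading the fas2-4 points spread around medians of +1.05, +0.96, +0.67 and +0.99, and the medians of the genes on either side lie between -0.09 and +0.08. The hira-1 medians in the shading are -0.38, +0.26, +0.22 and -0.09.

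Among the fas2-4-led genes with the largest rises were 2 known from DNA damage, GMI1 and PARP2. AT2G18193, a P-loop ATPase gene (chromosome 2, 7917413 to 7919345), had 32.5, 28.7 and 28.3 CPM in fas2-4 and 0.485, 0.373 and 0.433 CPM in its Col-0, with 1.19, 3.22 and 1.85 CPM in hira-1 and 0.696, 1.48 and 1.18 CPM in its Col-0. The fas2-4 libraries stood far above all others, and the groups of experiment 1 overlapped. The fas2-4 effect was +6.10 (SE 0.35) and the difference +5.20 (SE 0.48, edgeR adjusted p = 0.0001562). AT1G68200, a CCCH-type zinc finger gene, had 7.40, 5.2 and 5.6 CPM in fas2-4 and below 1 CPM in each of the other 9 libraries, with a difference of +5.06 (SE 0.54, edgeR adjusted p = 0.0003804). GMI1, named for its induction by gamma irradiation and mitomycin C, had 15.2, 30.9 and 27.8 CPM in fas2-4 and 1.12, 1.64 and 1.38 CPM in its Col-0, with 0.325, 2.08 and 0.49 CPM in hira-1 and 0.894, 1.19 and 0.786 CPM in its Col-0. Its difference was +4.12 (SE 0.71, edgeR adjusted p = 0.006885), and the gene overlaps another counted gene. PARP2, a poly(ADP-ribose) polymerase of the DNA strand-break response, had 18, 33.5 and 28.3 CPM in fas2-4 and 3.27, 3.21 and 2.32 CPM in its Col-0, with 0.705, 1.93 and 0.545 CPM in hira-1 and 1.79, 1.81 and 0.885 CPM in its Col-0. Its difference was +3.65 (SE 0.57, edgeR adjusted p = 0.004481).

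On the list of 29 SOG1 pathway and DNA repair genes, 13 of 28 tested members had a called difference above 0 and none below, against 5.84% and 5.73% of all tested genes. The median difference of the list was +1.52, against +0.06 over all tested genes. With the length offset 13 members were called above 0 and 0 below, and the median was +1.09, against -0.02 over all tested genes. In fas2-4, 14 members were called higher and 0 lower, against 4% and 1.54% of all tested genes. In hira-1, 5 were called higher and 2 lower, against 14.4% and 15.3%. The list's members of the homologous recombination machinery included RAD54 (+2.21) and BRCA1 (+1.82), which were singled out after their values were seen. XRI1, an X-ray induced gene, had 39, 43.2 and 40.1 CPM in fas2-4 and 7.21, 6.19 and 4.28 CPM in its Col-0, with 9.06, 10.5 and 6.81 CPM in hira-1 and 8.25, 5.87 and 8.65 CPM in its Col-0. Its difference was +2.58 (SE 0.31, edgeR adjusted p = 0.001131).

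Several damage genes rose in both mutants, and by more in fas2-4. SMR7, a cyclin-dependent kinase inhibitor gene of the SIAMESE-related family, had 33.4, 21.1 and 18.4 CPM in fas2-4 and 0.461, 0.348 and 0.56 CPM in its Col-0, with 1.25, 1.68 and 1.80 CPM in hira-1 and 0.149, 0.334 and 0.885 CPM in its Col-0. No library of either mutant overlapped its Col-0. The effects were +5.72 (SE 0.41) in fas2-4 and +1.78 (SE 0.46) in hira-1, with a difference of +3.94 (SE 0.64, edgeR adjusted p = 0.005354). ANAC044, a NAC factor gene that acts downstream of SOG1, had effects of +4.93 (SE 0.33) and +1.67 (SE 0.34) in the same order and a difference of +3.26 (SE 0.47, edgeR adjusted p = 0.003066). Its homologue ANAC085 differed by +4.55 (SE 0.99), but its hira-1 effect of +0.73 was not called. TK1A, a thymidine kinase gene, had 111, 91.5 and 91.3 CPM in fas2-4 and 19.3, 22.6 and 21.6 CPM in its Col-0, with 36.9, 33 and 28.4 CPM in hira-1 and 20.6, 18.1 and 21.2 CPM in its Col-0, and a difference of +1.49 (SE 0.21, edgeR adjusted p = 0.002432). AT4G22960, AT5G60250 and AT2G18600 followed the same order, with differences of +4.51 (SE 0.68), +3.75 (SE 0.32) and +1.62 (SE 0.39). The hira-1 effect of AT2G18600 was not called with the length offset (+0.57, adjusted p = 0.1211). Without replicate 1 of Col-0 of experiment 1, or without replicate 1 or 3 of Col-0 of experiment 2, the difference of AT2G18600 was no longer called (adjusted p up to 0.0737).

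The core SOG1 motif was searched on both strands as CTT, 7 bases of any kind and AAG. It was present in 38 of the 252 promoters (15.1%) of fas2-4-led genes that rose, against 11% of all 20017 promoters. Of those that fell, 10 of 102 (9.8%) had it. Other motifs searched were also more frequent in the 252 promoters than in all promoters. These were the W-box (37.3% against 32.4%), MSA core (31.3% against 26.1%), heat shock element (16.7% against 11.4%) and G-box (11.5% against 8.72%). The E2F motif was less frequent (0.794% against 1.29%). The excess was therefore not particular to the SOG1 motif. The upstream region of AT2G18193 (TAIR10.1, chr2:7919346-7919595, minus strand, the 250 bases before its start) is shown as that of the fas2-4-led gene with the largest difference, with capitals on the fixed bases of the motif.
AT2G18193: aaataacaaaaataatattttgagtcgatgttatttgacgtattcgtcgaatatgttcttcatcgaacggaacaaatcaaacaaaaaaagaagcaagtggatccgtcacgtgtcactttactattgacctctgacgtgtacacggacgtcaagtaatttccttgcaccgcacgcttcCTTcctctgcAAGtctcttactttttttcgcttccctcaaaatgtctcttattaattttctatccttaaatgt

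The same match upstream of 4 other named genes is shown with 10 bases on either side.
AT1G68200 (chr1:25561425-25561457, plus strand, 203 bases before the start): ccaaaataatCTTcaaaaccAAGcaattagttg
PARP2 (chr4:1049660-1049692, plus strand, 96 bases before): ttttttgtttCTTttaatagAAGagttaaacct
SMR7 (chr3:10231588-10231620, minus strand, 43 bases before): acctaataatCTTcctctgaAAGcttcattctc
ANAC044 (chr3:229000-229032, plus strand, 65 bases before): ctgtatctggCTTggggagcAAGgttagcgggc

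Not all fas2-4-led rises were repair genes. ACC2, an acetyl-CoA carboxylase gene, had 6.85, 19.6 and 16.5 CPM in fas2-4 and 2.72, 3.26 and 2.06 CPM in its Col-0, with 0.217, 0.991 and 0.218 CPM in hira-1. Its difference was +3.71 (SE 0.80, edgeR adjusted p = 0.01594), and it shares sequence with its neighbouring paralog, so its counts are uncertain. GolS2, a galactinol synthase gene known from water-deficit responses, had 7.64, 7.91 and 5.26 CPM in fas2-4 and 0.946, 0.945 and 0.968 CPM in its Col-0, while hira-1 (1.25 to 2.93 CPM) and its Col-0 (1.08 to 5.57 CPM) overlapped. A single tested gene, AT1G56610, separates it from the second run on chromosome 1. AT3G22910, an E1-E2 type ATPase gene, rose in fas2-4 by +2.43 (SE 0.43) and differed by +3.44 (SE 0.68).

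The fas2-4-led genes that fell were fewer. TRY, a small MYB-type repressor of trichome fate, had 7.94, 5.87 and 5.92 CPM in fas2-4 and 22.9, 20.9 and 20.9 CPM in its Col-0, with 19.7, 17.5 and 35.6 CPM in hira-1 and 11.1, 12.6 and 22.7 CPM in its Col-0. Its fas2-4 libraries lay below all others, and the difference was -2.36 (SE 0.42, edgeR adjusted p = 0.007605). ZIP7, a zinc transporter gene, had 3.73, 3.27 and 1.96 CPM in fas2-4 and 8.13, 6.59 and 6.50 CPM in its Col-0, with a difference of -2.03 (SE 0.42, edgeR adjusted p = 0.01357). AT4G19430 differed by -3.94 (SE 0.58), the noncoding RNA gene AT2G05995 by -4.58 (SE 0.93) and AT3G55646 by -2.29 (SE 0.51). For AT2G05995 the Col-0 level was 4.51 to 6.19 CPM in experiment 2 and 0.199 to 2.31 CPM in experiment 1. The call of AT3G55646 ended without replicate 1 of either Col-0 set (adjusted p up to 0.0511). Of the fas2-4-led genes, 184 of the 252 that rose and 80 of the 102 that fell had a hira-1 effect under 0.5 in size. The Col-0 means of the 2 experiments lay at least 2-fold apart in 42 of the 252 and 24 of the 102. Among genes with no called difference that were not called in both mutants, this held for 1242 of 9398 with a difference above 0. Below 0 it held for 1032 of 8234.

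**Figure D4:**
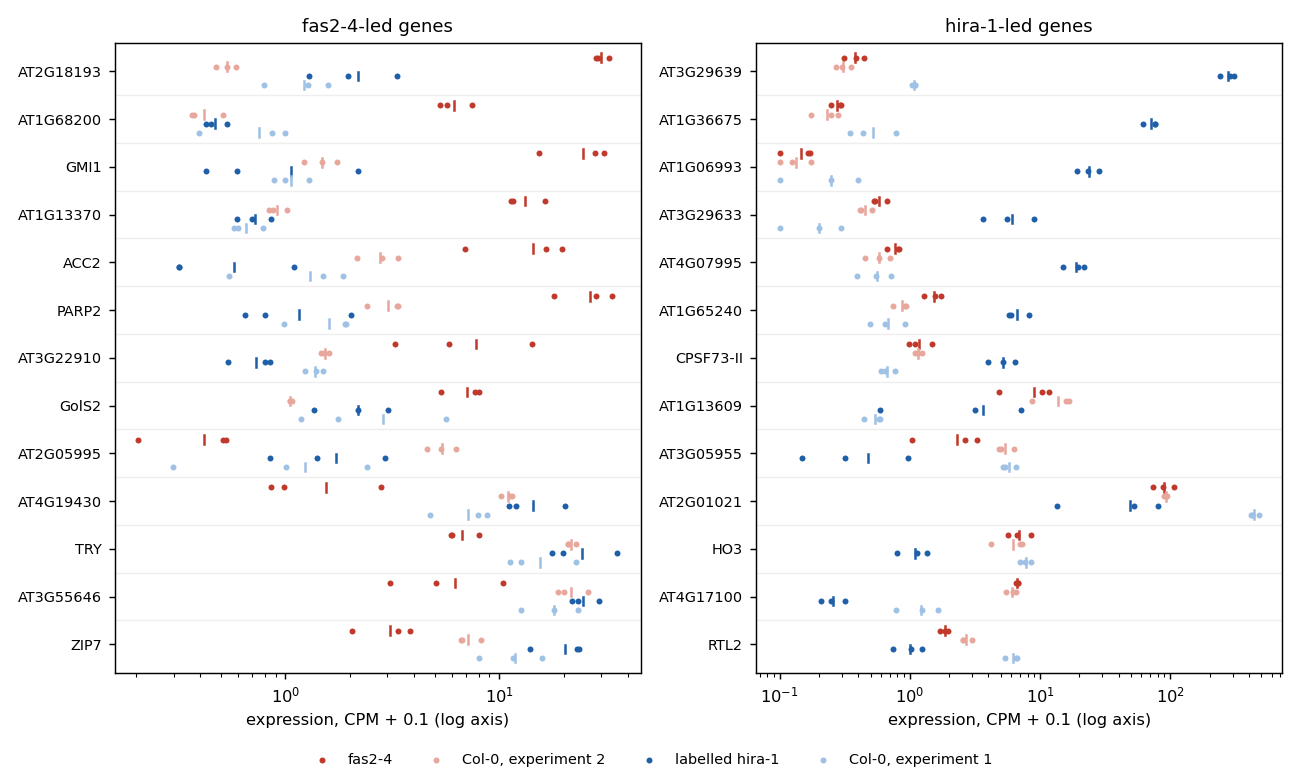
Expression (CPM plus 0.1, log axis) of fas2-4-led genes (left) and hira-1-led genes (right) in every library, with 1 point per library, 3 libraries per group and a tick at the group mean, for fas2-4, Col-0 of experiment 2, libraries labelled hira-1 and Col-0 of experiment 1 from top to bottom within each gene. On the left the fas2-4 points of most genes stand apart (28.3 to 32.5 CPM for AT2G18193), but those of GolS2 and AT2G05995 overlap Col-0 of experiment 1. On the right the hira-1 points of most genes stand apart (241 to 307 CPM for AT3G29639), but those of AT1G13609 and AT2G01021 overlap other groups.

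Among hira-1-led genes, the 5 largest rises by difference had about 1 CPM or less in every library of the other 3 groups. AT3G29639 (chromosome 3, 11478633 to 11480033), an uncharacterized protein gene, had 0.285, 0.344 and 0.211 CPM in fas2-4 and 0.17, 0.199 and 0.255 CPM in its Col-0, with 241, 287 and 307 CPM in hira-1 and 0.994, 1.0 and 0.934 CPM in its Col-0. All hira-1 libraries stood above 240 CPM, and the hira-1 effect of +8.15 (SE 0.21) gave a difference of -7.72 (SE 0.40, edgeR adjusted p = 3.607e-07). AT1G36675, a glycine-rich protein gene (chromosome 1, 13867568 to 13869490), had 76.1, 61.1 and 75.9 CPM in hira-1 and below 1 CPM in each of the other 9 libraries, with a difference of -6.98 (SE 0.61, edgeR adjusted p = 8.945e-05). The noncoding RNA gene AT1G06993 (13872214 to 13872516) starts within 5 kb of it and had 28.2, 19 and 23.3 CPM in hira-1, against 0 to 0.298 CPM elsewhere. Its difference of -6.91 (SE 1.74) was not called without replicate 1 or 2 of Col-0 of experiment 2 (adjusted p up to 0.234), nor with experiment 2 thinned to the depth of experiment 1 (adjusted p = 0.08558 for the difference of AT1G06993 (log2)). AT3G29633, near AT3G29639, had 8.95, 3.57 and 5.50 CPM in hira-1 and a difference of -5.42 (SE 0.76), and AT4G07995 had 21.8, 14.9 and 19.5 CPM and a difference of -4.86 (SE 0.42). CPSF73-II, a subunit gene of the cleavage and polyadenylation machinery, had 3.85, 6.34 and 5.07 CPM in hira-1 and 0.497, 0.668 and 0.541 CPM in its Col-0, with 0.88 to 1.37 CPM in fas2-4 and 0.995 to 1.14 CPM in that mutant's Col-0.

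The aspartyl protease gene AT1G65240 rose in hira-1 by +3.48 (SE 0.30) and overlaps another counted gene. AT1G13609, a defensin-like gene, had 7.0, 3.07 and 0.49 CPM in hira-1 and 0.348 to 0.492 CPM in its Col-0, while fas2-4 had 4.75 to 11.7 CPM and its Col-0 8.63 to 16.5 CPM. With the length offset its difference (-3.60, SE 0.93) was no longer called (adjusted p = 0.0504), and the call also ended with limma-voom (adjusted p = 0.1033) and without 7 of the 12 single libraries, namely hira-1 replicate 1, fas2-4 replicates 2 and 3, replicates 1 and 2 of Col-0 of experiment 1 and replicates 1 and 3 of Col-0 of experiment 2 (adjusted p up to 0.08415 in the difference of AT1G13609 (log2)).

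Of the hira-1-led genes that fell, HO3, a heme oxygenase gene, had 1.03, 0.694 and 1.25 CPM in hira-1 and 7.50, 6.96 and 8.45 CPM in its Col-0, with 8.35, 6.55 and 5.56 CPM in fas2-4 and 4.12, 6.91 and 7.11 CPM in that mutant's Col-0. The hira-1 libraries lay below all others, and the difference was +3.12 (SE 0.38, edgeR adjusted p = 0.001138). It overlaps another counted gene. RTL2, an RNase III-like gene, had 1.14, 0.644 and 0.926 CPM in hira-1 and 6.41, 5.29 and 6.59 CPM in its Col-0, and a difference of +2.19 (SE 0.33, edgeR adjusted p = 0.003571). AT4G17100, a poly(U)-specific endoribonuclease gene, had 0.108, 0.149 and 0.218 CPM in hira-1 and 1.54, 1.15 and 0.688 CPM in its Col-0, against 6.37 to 6.72 CPM in fas2-4 and 5.41 to 6.45 CPM in its Col-0, so the Col-0 sets stood apart; it also overlaps another counted gene. AT2G01021 had 13.3, 52.8 and 80.9 CPM in hira-1 and 475, 423 and 415 CPM in its Col-0, while fas2-4 (74 to 107 CPM) and its Col-0 (89 to 94 CPM) lay near the hira-1 level. The noncoding RNA gene AT3G05955 fell in hira-1 by 3.90 on the log2 scale, and its difference of +2.65 (SE 0.76) was lost without fas2-4 replicate 3, hira-1 replicate 3, any library of Col-0 of experiment 2, or replicate 1 or 2 of Col-0 of experiment 1 (adjusted p up to 0.0936). Of the hira-1-led genes, 781 of the 892 that rose and 627 of the 748 that fell had a fas2-4 effect under 0.5 in size. The Col-0 means lay at least 2-fold apart in 72 of the 892 and 88 of the 748.

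Some of the strongest changes were common to the mutants and gave no called difference. Of the 189 genes called in both with the same direction, 138 were higher and 51 lower. AT3G28500, a 60S acidic ribosomal protein gene, had 9.56, 5.33 and 5.41 CPM in fas2-4 and 1.70, 1.52 and 1.94 CPM in its Col-0, with 10, 13.2 and 15.3 CPM in hira-1 and 2.09, 3.81 and 3.74 CPM in its Col-0, and a difference of -0.02 (SE 0.43). SEP3, a floral identity MADS-box gene, had 7.68, 3.35 and 4.86 CPM in fas2-4 and 0.534, 0.448 and 0.484 CPM in its Col-0, with 4.18, 2.58 and 2.07 CPM in hira-1 and 1.54, 0.239 and 0.491 CPM in its Col-0. The flowering repressor FLC fell in both, by 3.15 in fas2-4 and by 5.03 in hira-1 on the log2 scale, and its difference of +1.88 (SE 1.09, edgeR adjusted p = 0.243) was not called. The noncoding RNA gene AT2G01422 had 2.59, 1.55 and 2.34 CPM in fas2-4 and 38.5, 56.4 and 47.5 CPM in its Col-0, but 0 counts in all 3 hira-1 libraries against 0.197 to 0.447 CPM in their Col-0.

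The lists of other pathways were chosen with earlier results of these data known, and each is described by its counts. Over all tested genes, 5.84% of differences were called above 0 and 5.73% below, with a median of +0.06. With the block in experiment 1, 3604 of the 20152 tested genes were called above 0 and 2788 below. With the length offset the numbers were 1370 and 1489. List counts given below for these 2 fits stand beside these numbers. In the salicylic acid and immune list, 8 of 28 tested members had a difference above 0 and none below (5.84% and 5.73% of all tested genes), with a median of +1.44. PR2, a secreted glucanase and marker of the salicylic acid response, had 181, 104 and 127 CPM in fas2-4 and 25.7, 27.3 and 37.4 CPM in its Col-0, with 58.7, 13.9 and 31 CPM in hira-1 and 60.4, 67.1 and 60.8 CPM in its Col-0. It was higher in every fas2-4 library and lower in every hira-1 library than in their Col-0, though the hira-1 effect of -0.86 was called with the block in experiment 1 (adjusted p = 0.02574) and not without it, and the difference was +3.06 (SE 0.54, edgeR adjusted p = 0.007464). ICS1, the salicylic acid synthesis enzyme, and SARD1, a regulator of ICS1, differed by +1.51 (SE 0.26) and +2.06 (SE 0.40). With the length offset 7 members of this list were called above 0, and with the block in experiment 1 16.

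The flavonoid and anthocyanin list had 7 of 15 tested members above 0, against 5.84% of all tested genes, none below, and a median of +1.13. DFR, an enzyme of the late anthocyanin branch, had 42.9, 76.8 and 42 CPM in fas2-4 and 15.8, 15.6 and 9.17 CPM in its Col-0, with 41.1, 40.6 and 56.9 CPM in hira-1 and 76.8, 44.6 and 100.1 CPM in its Col-0. The level in fas2-4 overlapped that of both groups of experiment 1, so only the contrast with its own Col-0 separates it. UF3GT, a flavonoid glycosyltransferase gene, differed by +2.91 (SE 0.45), TT7 (AT5G07990), the flavonoid 3'-hydroxylase gene, by +1.90 (SE 0.43) and the bHLH regulator gene TT8 by +3.27 (SE 0.75). The call of TT7 ended without replicate 1 of Col-0 of experiment 2 (adjusted p = 0.0529), and that of TT8 without replicate 3 of that set or fas2-4 replicate 2 (adjusted p up to 0.055).

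Differences below 0 were found among photosynthesis and nutrient genes. In the photosynthesis list 6 of 28 tested members lay below 0, against 5.73% of all tested genes, and none above, with a median of -0.39. With the length offset 4 lay below 0 and the median was -0.23, and with the block in experiment 1 10 lay below 0. RBCS3B, a Rubisco small subunit gene, had 14550, 12610 and 12010 CPM in fas2-4 and 18260, 20430 and 22150 CPM in its Col-0, with 17450, 18510 and 16950 CPM in hira-1 and 15660, 16950 and 12460 CPM in its Col-0. Its difference was -0.87 (SE 0.21, edgeR adjusted p = 0.02141), and RBCS1B and LHCB5, a light-harvesting protein gene, differed by -0.98 (SE 0.24) and -0.94 (SE 0.24). These calls were lost without 5, 7 and 8 of the 12 single libraries, and that of PSAE1 (-0.89, SE 0.24) also with the length offset (adjusted p = 0.0707). Reads of near-identical RBCS copies may be shared.

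The phosphate starvation list had 3 of 14 tested members below 0, against 5.73% of all tested genes, none above, and a median of -1.10. SPX1, a phosphate sensor gene, had 33.1, 21.7 and 32.4 CPM in fas2-4 and 65.2, 36.4 and 70.1 CPM in its Col-0, with 7.10, 16.5 and 34.7 CPM in hira-1 and 5.12, 7.97 and 6.19 CPM in its Col-0. The Col-0 sets did not overlap, and the difference was -2.57 (SE 0.61, edgeR adjusted p = 0.02207). PAP17, an acid phosphatase gene, and PHT1;4, a phosphate transporter gene, differed by -1.77 (SE 0.46) and -1.34 (SE 0.38). The 3 calls ended without 5, 7 and 9 of the 12 single libraries (SPX1, PAP17 and PHT1;4 in that order), among them replicate 1 of Col-0 of experiment 1. In the iron list 2 of 16 lay below 0 (5.73% of all tested genes) and none above, and with the block in experiment 1 8 lay below 0.

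In the G2 and M phase list 4 of 27 tested members had a difference above 0 and none below, against 5.84% and 5.73% of all tested genes, with a median of +0.69. With the block in experiment 1 12 lay above 0, and with the length offset 6. In the single effects, 11 members were called higher and 0 lower in fas2-4, against 4% and 1.54% of all tested genes. In hira-1, 7 were called higher and 1, PLE, lower, against 14.4% and 15.3% of all tested genes. PLE, a microtubule-associated protein of the cytokinetic phragmoplast, had 9.82, 16.4 and 17.58 CPM in fas2-4 and 10.7, 10.4 and 9.96 CPM in its Col-0, with 1.57, 1.88 and 0.599 CPM in hira-1 and 6.61, 6.30 and 3.0 CPM in its Col-0. Its difference of +2.46 (SE 0.51, edgeR adjusted p = 0.01362) came with a called fall in hira-1 (-1.96), while the fas2-4 effect of +0.50 was not called. CDKB2;1, CYCB2;3 and CYCB3;1, a mitotic kinase and 2 B-type cyclins, differed by +1.06 (SE 0.28), +0.95 (SE 0.25) and +1.90 (SE 0.52), and their calls ended without 9, 8 and 9 of the 12 single libraries. In the S phase list 1 of 19 members lay above 0 and 1 below.

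Histone H3 genes differed from one another. AT1G13370, a histone superfamily gene, had 16.3, 11.5 and 11.3 CPM in fas2-4 and 0.776, 0.92 and 0.739 CPM in its Col-0, with 0.759, 0.495 and 0.599 CPM in hira-1 and 0.497, 0.477 and 0.688 CPM in its Col-0. The groups of experiment 1 overlapped, and the difference was +3.84 (SE 0.40, edgeR adjusted p = 0.0003071). The H3.1 gene AT1G09200 was an opposite gene, with 191, 134 and 138 CPM in fas2-4 and 88.3, 93.4 and 93.8 CPM in its Col-0, against 29.6, 42.4 and 42.9 CPM in hira-1 and 81, 67.8 and 82.3 CPM in its Col-0 (difference +1.76, SE 0.25, edgeR adjusted p = 0.003066). So was the H3.3 gene AT5G10980 (effects +0.60 and -0.51, difference +1.11, SE 0.21). The H3.1 gene AT3G27360 rose in fas2-4 and differed by +1.22 (SE 0.21). Another H3.3 gene, AT4G40030, had a difference of the other sign (-0.88, SE 0.23), from a rise in hira-1, which ended without 8 of the 12 single libraries. The H3.1 gene AT5G65360 differed by +0.62 (SE 0.18), a call that ended without 9 of the 12 single libraries and with RLE scaling. The differences of AT5G10400, AT5G10390 and AT4G40040 were not called, but each had a called single effect. AT5G10390 rose in hira-1 (+1.001, edgeR adjusted p = 0.001942), where AT1G09200 fell (-1.009, edgeR adjusted p = 0.003205). AT4G40040 fell in hira-1 (-0.637, edgeR adjusted p = 0.03079), and AT5G10400 rose in fas2-4 (+0.598, edgeR adjusted p = 0.01591). With the block in experiment 1, the differences of AT5G10390 (-0.71, adjusted p = 0.0123) and AT4G40040 (+0.74, adjusted p = 0.02941) were called. With the length offset, those of AT5G10400 (+0.68, adjusted p = 0.02107) and AT4G40040 (+0.81, adjusted p = 0.03385) were called. AT1G75600 had 252, 249 and 259 counts in the fas2-4 libraries, 0 in all Col-0 libraries, and 4, 0 and 0 in those labelled hira-1, so no fold is given. Its difference was not called. H3.1 genes are near-identical in coding sequence, so reads may be split among them. Of the genes named above, PLIM2b, AT5G25260, AT4G07995, AT5G60250, SARD1, CDKB2;1, PAP17, PSAE1 and AT3G27360 also overlap another counted gene.

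The counts of the other lists stand beside 5.84% of all tested genes called above 0 and 5.73% below. Those with the block in experiment 1 stand beside 3604 of 20152 tested genes above 0 and 2788 below. A larger count with that block therefore goes with more calls over all genes. Among histone chaperones 1 of 19 tested members lay below 0 (ASF1B, -1.17, SE 0.20) and none above, and FAS1, with an effect of +0.01 in fas2-4 and -1.17 in hira-1, had no called difference (+1.18, SE 0.50, edgeR adjusted p = 0.127), but was called with the block in experiment 1 (+1.23, adjusted p = 0.03798). Its hira-1 effect was not called with the length offset (adjusted p = 0.08909). With that block 5 histone chaperones lay above 0 and 3 below. The DNA methylation and Polycomb list had 2 of 20 members above 0 and the flowering time list 2 of 15, namely FT and TSF, the florigen genes, at +1.76 (SE 0.49) and +2.65 (SE 0.64). The cold and water deficit, heat shock and jasmonate and ethylene lists had 2 of 13, 2 of 11 and 2 of 15 members above 0, the glucosinolate list had 1 of 11 and the floral identity list 1 of 12 below. No member was called in the circadian clock (15 tested), senescence (12) or shoot meristem (8) lists; with the block in experiment 1 4 clock genes and 1 senescence gene were called above 0. That block also moved the lists of S phase (5 above, 1 below), DNA methylation and Polycomb (4 above), flowering time (6 above, 1 below), cold and water deficit (4 above), heat shock (4 above), jasmonate and ethylene (4 above, 1 below), glucosinolate (5 above) and floral identity (1 above, 1 below). Among markers of particular cells, 0 of 4 tested root genes, 2 of 8 stomatal lineage genes (MUTE at -1.69 and EPF2 at -1.15) and 1 of 6 trichome genes (TRY) were called, all below 0. Of 9 root markers 5, and of 8 seed regulator and storage genes 7, did not pass the filter on low counts. In whole seedlings, fewer cells of a type and less RNA per cell cannot be told apart, and the part of cell composition in these differences was not tested. The silenced loci list had 3 tested members, all below 0: MRU1, AT5G35480 and QQS, an orphan gene with effects of -1.09 in fas2-4 and +0.79 in hira-1.

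**Figure D5:**
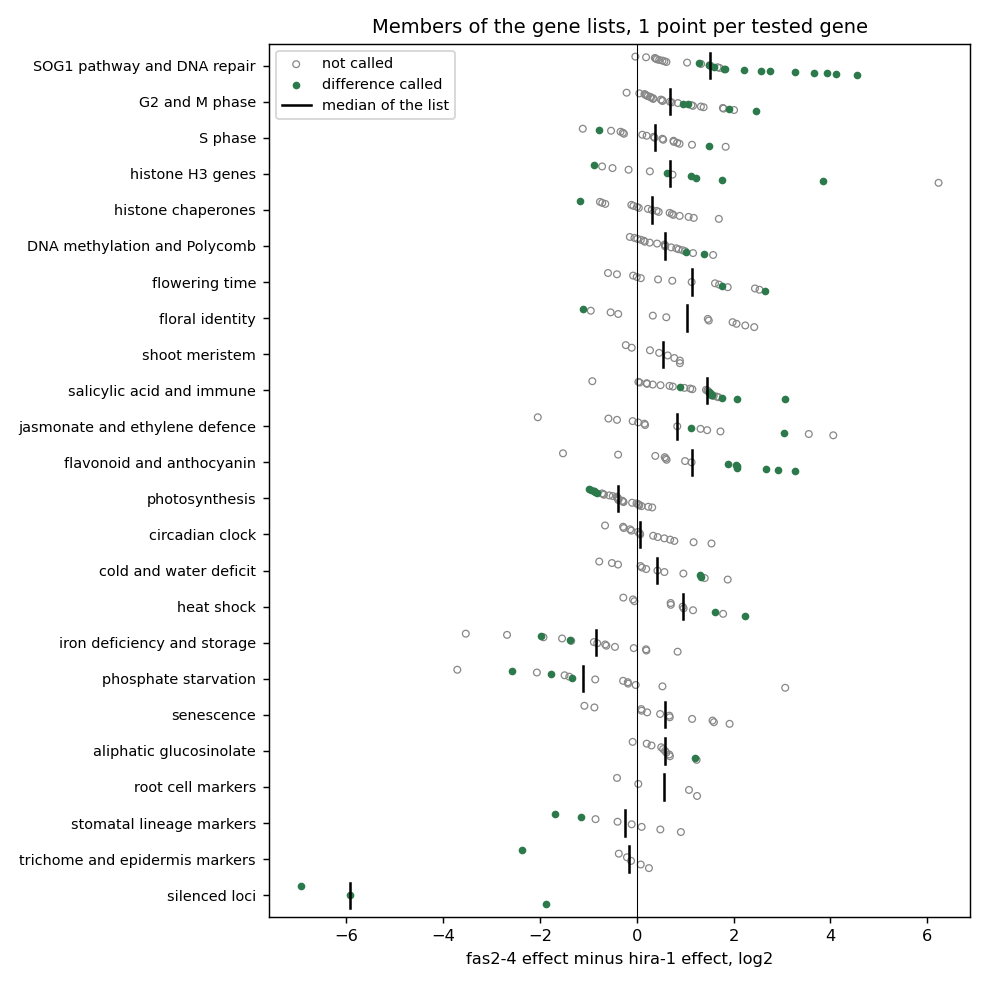
The fas2-4 effect minus the hira-1 effect (log2, horizontal) for each tested member of the gene lists with at least 3 tested genes, with filled points for called differences, open points for the others and a bar at the median. The medians of the SOG1 pathway list (+1.52) and the salicylic acid list (+1.44) lie to the right of 0, and those of the phosphate list (-1.10) and the silenced loci list (-5.93) to the left. The silenced loci list has 3 tested members, and its median is the value of MRU1.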

How the data were processed

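RNA was sequenced from whole seedlings in 12 libraries, 3 per group. The submitters' processing notes name fastp 0.23.4, HISAT2 2.2.1 and the TAIR10 build. How reads were assigned to genes, with which annotation and with or without strand, is not given in the sources used here. For each experiment the authors deposited 1 table of raw read counts per gene, and these counts were used as deposited. Deposited TMM-scaled TPM values (12 columns) were not used. Tables were joined by gene identifier, and 32548 of 32833 genes (99.1%) matched the TAIR10.1 reference used for names, positions and exon lengths. Organellar genes took 0.0796% to 0.458% of the counts. Of the tested genes, 30.9% overlap another counted gene, so their values are uncertain.

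All 12 libraries entered 1 edgeR 4.0.16 model in R 4.3.3, with 1 mean per group, the low-count filter filterByExpr, TMM scaling, robust glmQLFit and 2-sided glmQLFTest. P-values were adjusted over all genes by the Benjamini-Hochberg method and called under 0.05. SE is the log2 value divided by the square root of F. CPM are counts divided by the TMM-scaled library size, as edgeR gives them. The pipeline was tested on simulated counts. Between libraries of the same replicate number, deviations from the group means correlated at 0.214, 0.427 and 0.508 in experiment 1, and at -0.063, 0.163 and -0.002 in experiment 2. The labels do not state that equal numbers mark pairs. Replicate libraries differed beyond counting noise in every group, so none was counted as a duplicate.

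The genes, lists, rules and settings were chosen with earlier results of these data known. Named genes are those with the largest differences in each class (8 per direction, or 5 for the falls of the fas2-4-led and hira-1-led genes, the hira-1-led genes being ranked by effect), 5 genes of each class that moved the same way in both mutants, all averaging 5 CPM or more in some group, up to 4 members of each list with at least 3 called differences, and HIRA, FAS1, FAS2 and the H3 genes. Other settings were scaling by RLE or by the upper quartile, no low-count filter, 1 CPM in 3 libraries as the filter, DESeq2 1.42.0, limma-voom 3.58.1, no robust estimation, a 2-fold minimum, a length offset (loess, span 0.5), replicate blocks, experiment 2 thinned to the depth of experiment 1, separate fits, and each library left out. Added after the data were seen were the block in experiment 1 alone, that block with the length offset, the length offset without fas2-4 replicate 1, and the counts outside the 4 runs of neighbouring genes.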

Additional observations from a re-analysis of the deposited data

How the results depend on the processing

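The 2331 called differences became 4181 with DESeq2, and lay between 723 and 4844 when single libraries were left out. The replicate block gave 6461, with the length offset 5865, and the block in experiment 1 alone 6392 and 5773. Genes lower in fas2-4 and higher in hira-1 (38) numbered 25 without a filter, 106 with DESeq2, 6 with a 2-fold minimum, 64 with the length offset (84 also without fas2-4 replicate 1), 19 with separate fits, 275 and 407 under the replicate block without and with the length offset, 207 and 336 under the block in experiment 1, and 10 to 74 without 1 library. Genes higher in fas2-4 and lower in hira-1 (58) numbered 102, 21 (2-fold) and 32 (separate fits), then 187 and 229 (block), 174 and 221 (block in experiment 1), and 15 to 81. The 354 fas2-4-led genes became 652 with DESeq2, 614 with the length offset (604 without fas2-4 replicate 1), 554 with separate fits, 837 and 1250 with the block, 828 and 1192 with the block in experiment 1, and 126 to 438. The 1640 hira-1-led genes became 2868, 812 (2-fold), 4635 and 3450, 4629 and 3488, and 405 to 3861. The 189 genes shared in direction became 361, 92 (2-fold), 291 (length offset), 572 and 733, 531 and 696, and 86 to 280. The cause of these moves was not tested, except that a 2-fold minimum removes genes by construction.

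Of 74 named genes with a called difference, 55 kept the call without any 1 library, 54 under every setting, and 0 changed sign. Signs turned only for differences that were not called: AT1G75945 (0.429 with limma-voom, 0.52 with the length offset, 0.306 thinned, 0.524 with block and offset, 0.519 with the block in experiment 1 and offset, 0.523 with offset and without fas2-4 replicate 1, -0.758 to 1.385 without 1 library), AT2G01422 (-0.96 with limma-voom), AT5G23115 (0.376, 0.334, 0.332 and 0.556 with the length offset alone, with the block, with the block in experiment 1 and without fas2-4 replicate 1), the difference of AT3G28500 (log2) (0.003 without a filter, 0.279, 0.247, 0.259 and 0.109 in the same order, -0.355 to 0.215 without 1 library) and FAS2 (-0.035 to 0.472 without 1 library, the lowest without replicate 1 of Col-0 of experiment 1). Experiment 1 was sequenced less deeply than experiment 2, which limits its low genes; thinned to equal depth, 2207 differences were called.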
